A study of Mus musculus with 23 samples.

Results

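The cytosolic ribosomal protein genes were followed in mouse embryonic stem cells (ESCs) before and after removal of the DNA-binding domain of KDM2B. Genes were taken by name, as Rpl or Rps followed by a number, together with Rpsa and the stalk genes Rplp0, Rplp1 and Rplp2, leaving out the S6 kinase genes and names ending in -ps. This gave 86 of the 23369 gene names in the expression tables. By name, 43 belong to the large subunit, 31 to the small subunit and 3 to the stalk. The other 9 are paralogs or near names, namely Rpl3l, Rpl7l1, Rpl10l, Rpl22l1, Rpl36al, Rpl39l, Rps27l, Rps4y2 and Rps19bp1. Of these, Rps19bp1 encodes a protein that binds RPS19 and is not itself a ribosomal protein. Each of the 86 genes had a single row in every table, and each passed the filter on low values.

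A ribosome is built from ribosomal RNA and a set of mostly small and basic proteins, most of them needed in equal numbers, and their genes are usually expressed together and at high levels in dividing cells such as ESCs. Their mRNAs carry a terminal oligopyrimidine (TOP) tract, which starts with a C at the cap and continues with C and T, and through which the kinase complex mTORC1 and the protein LARP1 control translation. MYC is among the transcription factors known to raise their transcription. Some paralogs replace a standard subunit in certain tissues, as Rpl3l does for Rpl3 in muscle and Rpl10l and Rpl39l do for Rpl10 and Rpl39 in male germ cells.

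To describe these genes by something that their names do not use, the sequence around the annotated start of transcription was read from RefSeq, in the assembly GRCm38.p6, for the 65 genes with an entry. The windows below hold 30 bases, 15 before the annotated start and 15 from it, for 4 paralogs and 6 standard genes. The standard genes are examples picked for a long run of C and T, at least 10 bases, and the median longest run over the entries of all 65 genes was 6 bases, against 4 in the whole table. They are written 5′ to 3′ on the sense strand, and capitals mark the longest unbroken run of C and T.
Rps6, chr4:86857353-86857382, minus strand: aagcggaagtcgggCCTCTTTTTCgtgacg
Rpl35, chr2:39005117-39005146, minus strand: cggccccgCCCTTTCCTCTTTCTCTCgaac
Rplp2, chr7:141447636-141447665, plus strand: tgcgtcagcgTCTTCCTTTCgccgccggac
Rpl28, chr7:4792950-4792979, plus strand: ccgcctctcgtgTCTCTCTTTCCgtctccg
Rps10, chr17:27635230-27635259, minus strand: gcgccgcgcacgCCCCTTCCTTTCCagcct
Rpl38, chr11:114668565-114668594, plus strand: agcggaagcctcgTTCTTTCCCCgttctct
Rpl22l1, chr3:28805493-28805522, plus strand: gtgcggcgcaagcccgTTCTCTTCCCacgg
Rpl39l, chr16:10170213-10170242, plus strand: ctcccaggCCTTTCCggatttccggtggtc
Rpl10l, chr12:66284387-66284416, minus strand: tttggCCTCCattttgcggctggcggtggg
Rpl7l1, chr17:46782642-46782671, minus strand: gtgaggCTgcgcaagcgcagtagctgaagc

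The run of C and T was 10 bases in Rps6 and 18 in Rpl35, which were picked for a long run. Among the paralogs it was 10 bases in Rpl22l1, 7 in Rpl39l, 5 in Rpl10l and 2 in Rpl7l1. Over the 77 entries of the 65 genes, 28 (36.4%) held a run of at least 8 bases in this window, against 12% of the 32851 entries of the whole table. The letters TCTTT stood in the sense strand of the window in 11 of the 77 entries (14.3%), against 3.53% of all entries. CCGGAAG, the core of a binding site for ETS factors, was found on either strand of the 300 bases from 250 before to 50 after the start in 27 of the 77 entries (35.1%), against 8.86% of all entries. These matches describe the letters in the windows, and the annotated start can lie some bases away from the start used in these cells.

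PolyA+ RNA was sequenced as directional paired-end libraries from ESCs of the genotype Kdm2b fl/fl, whose 2 Kdm2b alleles are floxed at the exon for most of the ZF-CxxC domain. The 3 untreated and the 3 tamoxifen samples are labelled as the same MS12 Kdm2b fl/fl line, at passages given only as a range, and the methods place an ERT2Cre allele at Rosa26 in the line, so that untreated cells carry the same recombinase. The tamoxifen group received 4-hydroxy tamoxifen at 800 nM for 72 hr by the sample labels, while the text of the series gives 800 µM. Cells were grown on inactivated mouse embryonic fibroblast feeders, which were removed overnight before the treatment, and the methods describe the RNA-seq samples as biological triplicates. No group without the recombinase or without floxed alleles received tamoxifen in these samples, so that the deletion, the drug and the activated recombinase cannot be told apart.

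The sample labels set the groups. File names read the other way round for all 6 samples, and by them each difference given here would have the same size with the opposite sign. The targeted gene Kdm2b was at 27.0, 21.5 and 27.7 FPKM in untreated replicates 1, 2 and 3 and at 19.9, 21.9 and 25.04 FPKM in tamoxifen replicates 1, 2 and 3. Its log2 fold change (tamoxifen minus untreated) of -0.19 did not pass the test (adjusted p = 0.999, and 0.306 with the replicate block), and a value for the whole gene does not resolve the deleted exon. FPKM is a count of fragments on a gene relative to the length of its transcript and to the mapped fragments of the library. Read counts are not in the tables, and steps of single fragments in low genes gave depths of 0.655 to 0.954 for the other 5 libraries relative to untreated replicate 1. The ESC markers Pou5f1, Nanog and Sox2 lay above 100 FPKM in every library, and the 10 ESC markers summed to 2892 to 4069 FPKM in the untreated and 3210 to 5614 FPKM in the tamoxifen libraries. Of 12 fibroblast markers, 11 were expressed highly enough to be tested and Lum was listed at 0 in untreated replicate 1. Their sum was 241 to 520.5 FPKM in the untreated and 320 to 406 FPKM in the tamoxifen libraries.

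In these cells the ribosomal protein genes were among the most abundant transcripts, and their level depended more on the replicate number than on the treatment. The median gene was at 303 FPKM over all 6 libraries, against 9.43 FPKM for the 12997 genes tested. Summed, the 86 genes reached 45819, 24627 and 28572 FPKM in untreated replicates 1, 2 and 3 and 58799.8, 29695 and 31512 FPKM in tamoxifen replicates 1, 2 and 3. Replicate 1 stood apart in both groups, and the groups overlapped: all 3 tamoxifen sums exceeded untreated replicates 2 and 3, and tamoxifen replicates 2 and 3 lay below untreated replicate 1. In bulk libraries scaled to their total, less RNA per cell and fewer cells of a type cannot be told apart. The group means were 33006 ± 11271 FPKM (SD, n = 3) untreated and 40002 ± 16304 FPKM (SD, n = 3) with tamoxifen. Within the replicate numbers, the sum with tamoxifen was 1.28, 1.21 and 1.10 times that of the untreated sample.

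**Figure D1:**
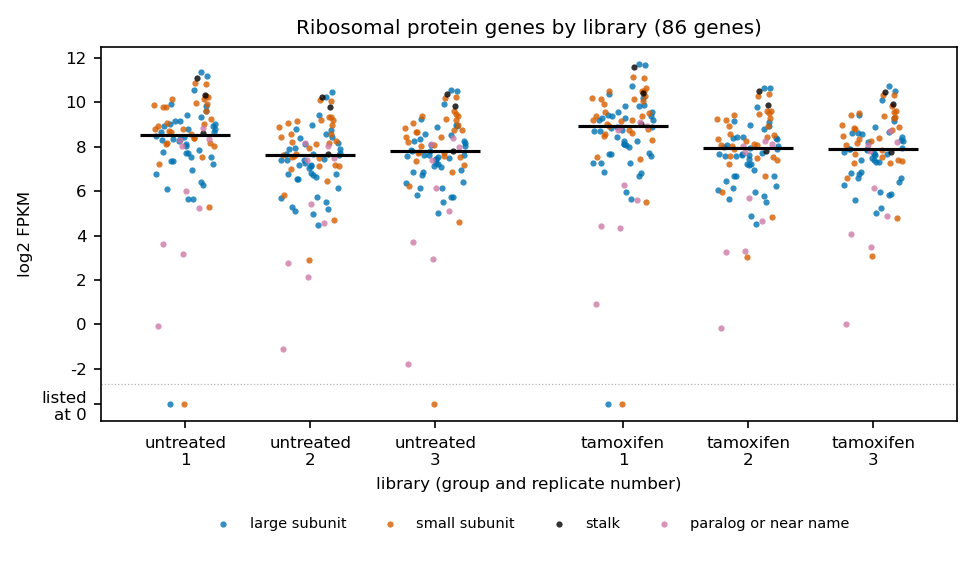
Level of each of the 86 ribosomal protein genes in each library, as log2 FPKM on the vertical axis, with libraries by group and replicate number on the horizontal axis. Each point is a gene, colours give the subunit or the paralogs and near names, and the bar is the median over the 86 genes. Points on the lowest level mark genes listed at 0. The medians of replicate 1 lie above those of replicates 2 and 3 in both groups, and 3 paralogs lie far below most of the other genes.

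The highest gene was Rpl8, which encodes a protein close to the peptidyl transferase centre, at 2652, 1228 and 1509 FPKM in untreated replicates 1, 2 and 3 and at 3386, 1610.1 and 1704 FPKM in tamoxifen replicates 1, 2 and 3. After it came Rpl41 (mean over 6 libraries 1922 FPKM), which encodes the smallest ribosomal protein, and the stalk gene Rplp1 (1790.0 FPKM), while the small subunit gene Rps9 had a mean of 1491 FPKM. The ranges of these 4 genes over the 6 libraries overlapped. Among the genes with the lowest means were the paralogs Rpl3l (0.913 FPKM), Rpl39l (10.4 FPKM) and Rpl10l (13.4 FPKM), while Rps15a, a standard small subunit gene, had a mean of 32.1 FPKM. Rps27, also among the 5 lowest, was listed at 0 in 3 libraries and is described below. Apart from Rps27, the means of the standard genes ran from that of Rps15a to that of Rpl8. Ribosomal protein genes have many near-identical processed copies in the mouse genome, so that the level of a gene also depends on how shared reads were assigned.

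The replicate number carried most of the spread. In the untreated group, replicate 1 exceeded the mean of replicates 2 and 3 by a median of 0.78 over the 86 genes on the log2 scale, and in the tamoxifen group by a median of 0.92. Over all genes tested the same medians were 0.082 and -0.004. Replicate 1 was the highest sample of both groups in 82 of the 86 genes, against 31.6% of all genes tested. In a limma F-test on the replicate number, 85 of the 86 genes passed an adjusted p of 0.05, against 62.8% of all genes tested. Rpl26 and Rps27 passed with replicate 1 listed at 0 in both groups, and without them 83 of 84 genes passed. Rps27l, a paralog of Rps27, was the exception (adjusted p = 0.0719). Genes similar in length and level also followed the replicate number. Of the 232 other genes with a mean of at least 50 FPKM and a transcript under 1000 bp, 184 had replicate 1 highest in both groups. In the F-test 215 of these 232 passed, and their median excess of replicate 1 was 0.43 untreated and 0.69 with tamoxifen. Among the 75 mitochondrial ribosomal protein genes tested, 64 had replicate 1 highest in both groups and 66 passed.

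Other properties of the libraries moved with the same number. Loci under 300 bp held 23.9% and 25.6% of the summed FPKM in untreated and tamoxifen replicate 1, and 42.3% to 67.7% in the other 4 libraries. The summed fibroblast markers were at 241 and 320 FPKM in untreated and tamoxifen replicate 1, and at 402 to 520.5 FPKM in the other 4. The part of these in the higher ribosomal protein levels of replicate 1 was not tested. Without the loci under 300 bp, the 86 genes took 10.95% and 12.7% of the summed FPKM in replicate 1 and 7.3% to 8.42% in the other libraries, against 8.34% and 9.47% and 2.36% to 4.86% with these loci. Across the 84 genes with a transcript length, the excess of replicate 1 had a Spearman correlation of 0.080 with length in the untreated and 0.019 in the tamoxifen group, and across 11968 genes tested it was -0.40 and -0.59. These correlations are over genes of the same libraries and are given as a description. The median length was 832 bp over the 84 genes and 2809 bp over the 11968. The correlations therefore cover unlike ranges of length and cannot be set against each other. The lengths are those of GENCODE transcripts, not of the models behind the FPKM. They can exceed the locus, as for Rps20, with 3706 bp at chr4:3761620-3762747 in mm9.

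Within the replicate numbers most ribosomal protein genes had slightly higher values with tamoxifen. The median log2 fold change of the 86 genes was 0.26, with quartiles of 0.19 and 0.31, against -0.019 over all genes tested, with quartiles of -0.24 and 0.17. The log2 fold change was above 0 in 83 genes and below 0 in Rpl9, Rpl37a and Rpl36a. In 62 of the 86 genes the tamoxifen sample was higher within each of the 3 replicate numbers, against 24.8% of all genes tested, and in 1 gene, Rpl9, it was lower within each, against 28.2%. Of the 75 mitochondrial ribosomal protein genes tested, 48 were higher and 0 lower within each number. Of the 232 other genes of at least 50 FPKM with a transcript under 1000 bp, 110 were higher and 7 lower within each. The median difference of the 86 genes was 0.36 within replicate 1, 0.29 within replicate 2 and 0.14 within replicate 3. The whole median rested on which replicates entered, because replicate 1 was high in both groups: it was -0.056 without tamoxifen replicate 1, 0.52 without untreated replicate 1 and 0.069 without untreated replicate 2, and stayed between 0.23 and 0.30 when both samples of a number were left out.

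**Figure D2:**
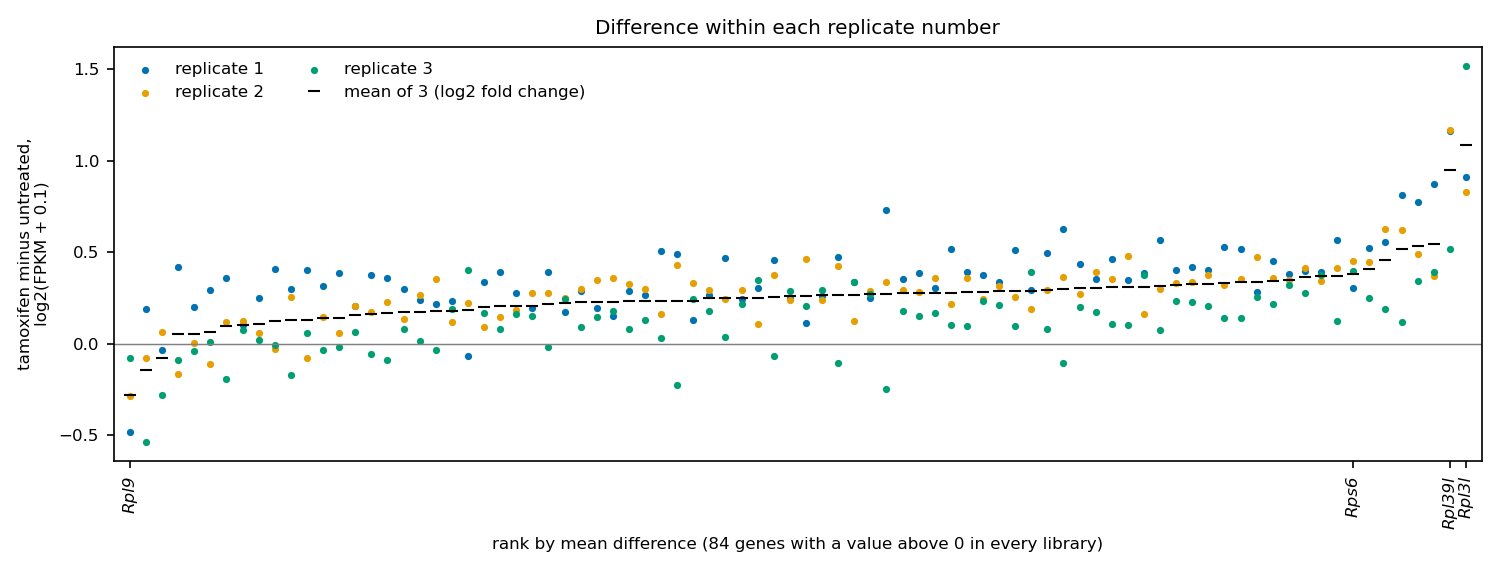
Difference between the tamoxifen and the untreated sample of each replicate number on the log2(FPKM + 0.1) scale (vertical axis) for the 84 ribosomal protein genes with a value above 0 in every library, ordered by their mean difference (horizontal axis, rank, with 4 genes named). Each colour is a replicate number and the dash is the mean of the 3. Most points lie above 0, those of replicate 3 are often the lowest, and Rpl9 is the gene with all 3 points below 0.

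Against the spread between libraries of a group, these differences did not pass. In the limma fit without a block no ribosomal protein gene reached an adjusted p of 0.05 in either direction, and 2 of the 86 had an unadjusted p under 0.05, against 4.79% of all genes tested. Of all genes tested, 0.0231% were called higher and 0.00769% lower. With the replicate number as a block, 7 of the 86 genes were called higher and none lower, where 4.33% of all genes tested were called higher and 6.06% lower. That equal numbers pair the samples was taken from correlations in these same libraries. At an unadjusted p under 0.05 with the block, 48 of the 86 genes were higher and 1 was lower, against 13.4% and 16.4% of all genes tested. At this limit 36 of the 75 mitochondrial ribosomal protein genes tested were higher and 0 lower. Of the 232 other genes of at least 50 FPKM with a transcript under 1000 bp, 62 were higher and 7 lower. Without replicate 2 in the blocked fit none of the 86 was called, and with median-ratio scaling 2 of the 7 were called, Rpl39l and Rpl3l. Of the 7 genes called, 5 were among the 9 paralogs and near names and 2 among the 77 standard genes. The groups did not overlap in 1 gene, Rpl39l, whose tamoxifen values all lay above the untreated values, as in 3.09% of all genes tested; in no ribosomal protein gene did they all lie below, as in 5.4% of all genes tested.

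The 2 standard genes called with the block were Rps6 and Rpl35. Rps6 (chr4:86500003-86503271 in mm9), the substrate of the S6 kinases, was at 422, 194 and 219.7 FPKM in untreated replicates 1, 2 and 3 and at 521, 265 and 289 FPKM in tamoxifen replicates 1, 2 and 3. The tamoxifen sample was higher within every number, while untreated replicate 1 exceeded tamoxifen replicates 2 and 3. Its log2 fold change was 0.38 ± 0.093 (SE with the block, adjusted p = 0.0416), and without the block the SE was 0.39 (adjusted p = 0.999). Rpl35 (chr2:38857101-38860651 in mm9), whose protein sits near the exit of the nascent chain tunnel, was at 524, 236 and 289.7 FPKM in untreated replicates 1, 2 and 3 and at 753, 322 and 345 FPKM in tamoxifen replicates 1, 2 and 3. The pattern was that of Rps6, with overlap between the groups through untreated replicate 1. The log2 fold change of Rpl35 was 0.41 ± 0.10 (SE with the block, adjusted p = 0.0439). Both calls lie close to the threshold and were lost under some scalings: with the block, the adjusted p of Rps6 was 0.0509 after median-ratio scaling and 0.149 after quantile normalization, and that of Rpl35 was 0.0624 and 0.119.

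The paralogs included the genes with the largest differences. Rpl3l (chr17:24864774-24873094 in mm9), the muscle counterpart of Rpl3, was barely expressed, at 0.946, 0.463 and 0.288 FPKM in untreated replicates 1, 2 and 3 and at 1.87, 0.899 and 1.01 FPKM in tamoxifen replicates 1, 2 and 3. The tamoxifen sample was higher within every number and the groups overlapped, with untreated replicate 1 just above tamoxifen replicate 2. The log2 fold change of Rpl3l was 1.09 ± 0.235 (SE with the block, adjusted p = 0.0301) on a scale with 0.1 added to each value, and the adjusted p without the block was 0.999. At this level the size depended on the added value, and the log2 fold change of Rpl3l was 0.53 with 1 added and 1.23 with 0.01 added.

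Rpl39l (chr16:10170321-10175004 in mm9), the paralog of Rpl39 known from male germ cells, was at 8.98, 4.37 and 7.84 FPKM in untreated replicates 1, 2 and 3 and at 20.2, 9.95 and 11.3 FPKM in tamoxifen replicates 1, 2 and 3. All 3 tamoxifen values lay above all 3 untreated values. The log2 fold change was 0.95 ± 0.15 (SE with the block, adjusted p = 0.0123), and without the block the adjusted p was 0.86. Its parent Rpl39 was at 696, 512 and 481 FPKM untreated and at 925, 501 and 478 FPKM with tamoxifen, higher in replicate 1 only, with a log2 fold change of 0.12 ± 0.12 (adjusted p = 0.518 with the block).

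Rpl22l1 (chr3:28704433-28706337 in mm9), the paralog of Rpl22, was at 261, 167 and 171 FPKM in untreated replicates 1, 2 and 3 and at 477, 216 and 225 FPKM in tamoxifen replicates 1, 2 and 3. The tamoxifen sample was higher within every number, and the groups overlapped through untreated replicate 1. Its log2 fold change was 0.545 ± 0.122 (SE with the block, adjusted p = 0.0336), while Rpl22 had a log2 fold change of 0.14 ± 0.10 (adjusted p = 0.373 with the block). Rpl10l (chr12:67384366-67385388 in mm9) was at 12.4, 6.84 and 13.2 FPKM untreated and at 21.4, 9.63 and 16.8 FPKM with tamoxifen, in replicates 1, 2 and 3. It was also higher with tamoxifen within every number, with tamoxifen replicate 2 below untreated replicates 1 and 3, and its log2 fold change was 0.535 ± 0.118 (SE with the block, adjusted p = 0.0316). Its parent Rpl10 had a log2 fold change of 0.28 ± 0.10 (adjusted p = 0.112 with the block).

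Rps4y2, which RefSeq lists as a synonym of Rps4l, is a copy of the X-linked Rps4x on chromosome 6 (chr6:148303178-148304118 in mm9), and its locus lies inside that of Tmtc1. It was at 330.4, 183 and 258 FPKM in untreated replicates 1, 2 and 3 and at 486, 282 and 294 FPKM in tamoxifen replicates 1, 2 and 3, higher with tamoxifen within every number and overlapping between the groups. The log2 fold change of Rps4y2 was 0.46 ± 0.11 (SE with the block, adjusted p = 0.0449), and that of Rps4x was 0.31 ± 0.11 (adjusted p = 0.114 with the block). Of the other paralogs, Rpl36al had a log2 fold change of 0.26 ± 0.092 (adjusted p = 0.109 with the block) and Rpl7l1 of 0.17 ± 0.096 (adjusted p = 0.264 with the block), and neither passed. Rps27l and Rps19bp1 had log2 fold changes of 0.056 and 0.096 and did not pass either.

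To take out differences in level between libraries, each paralog was also set against its parent gene in the same library, for the 7 pairs in which both genes had values above 0 in every library. The log2 ratio of Rpl39l to Rpl39 was -6.28, -6.87 and -5.94 in untreated replicates 1, 2 and 3 and -5.52, -5.655 and -5.405 in tamoxifen replicates 1, 2 and 3, a difference in means of 0.84. That of Rpl22l1 to Rpl22 was 0.66, 0.86 and 0.53 untreated and 1.21, 1.09 and 0.96 with tamoxifen, a difference of 0.40. In both pairs and in Rpl3l to Rpl3 (a difference of 0.98) the tamoxifen ratios all lay above the untreated ones. Each of these 3 pairs had the smallest p that an exact two-sided permutation test of 3 against 3 can give, 0.1, which is 0.233 after adjustment over the 7 pairs, so this test, which does not use the replicate numbers, cannot reach the threshold. The paralogs of these 3 pairs were also among the genes called with the block, so the ratios are no separate support for those calls. Rpl3l entered its ratio at 0.288 to 1.87 FPKM with nothing added. No share over other pairs of genes was computed for comparison.

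The other 4 pairs overlapped between the groups. The differences in mean log2 ratio were 0.345 for Rpl36al to Rpl36a, 0.26 for Rpl10l to Rpl10 and 0.15 for Rps4y2 to Rps4x. For Rpl7l1 to Rpl7 the ratio differed by -0.165, with exact permutation p = 0.6. Within the replicate numbers the difference kept its sign in all 3 numbers in each of the 7 pairs, above 0 in 6 of them and below 0 in Rpl7l1 to Rpl7. For this count, too, no share over other pairs of genes was computed. In FPKM, Rpl39l was at 1.25% of Rpl39 in the untreated group and 2.17% with tamoxifen, Rpl10l at 6.81% and 8.16% of Rpl10, and Rpl3l at 0.21% and 0.39% of Rpl3, so that these paralogs stayed minor beside their parents. Rpl22l1 and Rpl36al were higher than their parents, at 159% and 217% of Rpl22 and at 897% and 1157% of Rpl36a. These percentages compare the group means of the FPKM, not the means of the log2 ratios. Neither measure removes reads that a parent and its paralog share.

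**Figure D3:**
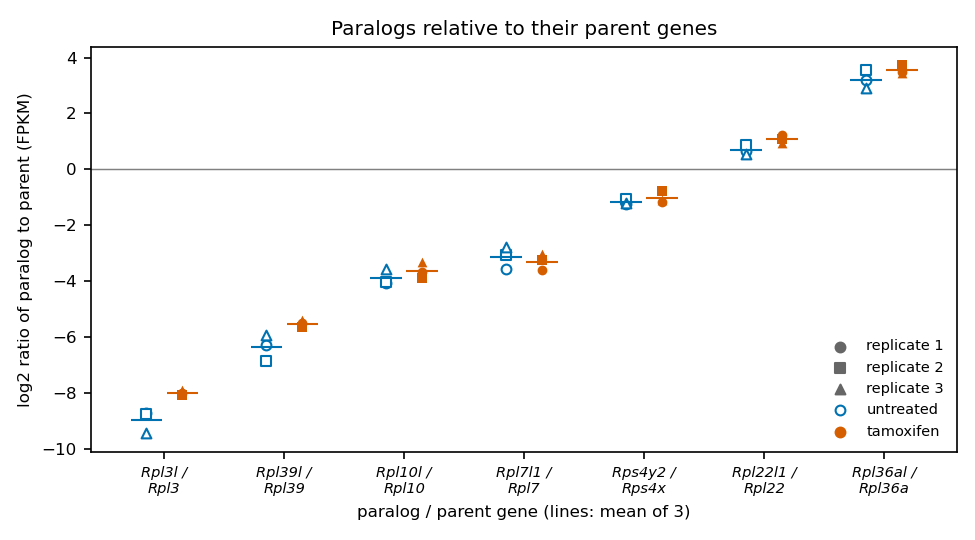
Log2 ratio of the FPKM of a paralog to that of its parent gene (vertical axis) for 7 pairs (horizontal axis), in untreated (open blue) and tamoxifen (filled orange) libraries. Symbols give the replicate number and lines the mean of 3. The groups do not overlap for Rpl3l, Rpl39l and Rpl22l1, and they overlap for the other 4 pairs.

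None of the 3 genes of the stalk, which recruits the elongation factors, passed the test. Rplp0, the base of the stalk, was at 1294, 874 and 915 FPKM in untreated replicates 1, 2 and 3 and at 1388, 953 and 965 FPKM in tamoxifen replicates 1, 2 and 3. The differences within the numbers were 0.10, 0.125 and 0.077, all above 0, and the log2 fold change of 0.10 ± 0.10 did not pass (adjusted p = 0.536 with the block). Rplp1 had a log2 fold change of 0.29 ± 0.125 (adjusted p = 0.165 with the block) and Rplp2 of 0.16 ± 0.11 (adjusted p = 0.35 with the block). The small subunit gene Rpsa, also known as the laminin receptor precursor, was at 486, 200.4 and 294 FPKM untreated and at 676, 269 and 274 FPKM with tamoxifen, higher in replicates 1 and 2 and lower in replicate 3 (log2 fold change 0.27 ± 0.13, adjusted p = 0.216 with the block).

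Apart from Rps6, none of the genes named for a role outside the ribosome or in disease passed. Rpl5 and Rpl11 form the 5S ribonucleoprotein particle, which also binds MDM2. Rpl5 was at 189, 98.6 and 135 FPKM untreated and at 253, 125 and 158 FPKM with tamoxifen, higher within every number, with a log2 fold change of 0.33 ± 0.092 (adjusted p = 0.062 with the block). Rpl11 was at 150.5, 71.2 and 84.6 FPKM untreated and at 190.0, 76.0 and 95.2 FPKM with tamoxifen, with a log2 fold change of 0.20 ± 0.094 (adjusted p = 0.198 with the block). Rps19, a gene mutated in Diamond-Blackfan anaemia, had a log2 fold change of 0.18 ± 0.11 (adjusted p = 0.292 with the block). Rpl38, which is needed for the translation of certain Hox mRNAs, was at 354, 168 and 189.6 FPKM untreated and at 421, 206 and 220.4 FPKM with tamoxifen, with a log2 fold change of 0.25 ± 0.090 (adjusted p = 0.114 with the block).

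Against the direction of the group stood Rpl9, a large subunit gene, at 219, 108 and 118 FPKM in untreated replicates 1, 2 and 3 and at 156, 88.7 and 112 FPKM in tamoxifen replicates 1, 2 and 3. It was lower with tamoxifen within every number, by 0.48, 0.29 and 0.076 on the log2 scale, and its groups overlapped. The log2 fold change of -0.28 ± 0.11 did not pass (adjusted p = 0.127 with the block). Rpl37a, a zinc finger protein of the large subunit, was higher in replicate 1 (210.4 against 184 FPKM) and lower in replicate 3 (85.2 against 124 FPKM), with a log2 fold change of -0.14 ± 0.14. Rpl36a had a log2 fold change of -0.080 ± 0.10, which turned above 0 after scaling to TPM. Rps28 and Rps27l, both at 0.056, turned below 0 after quantile normalization and after scaling to TPM without loci under 300 bp.

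Among the most abundant genes, the log2 fold changes were 0.31 ± 0.115 for Rpl8, 0.23 ± 0.13 for Rpl41 and 0.23 ± 0.11 for Rps9 (SE with the block), and none passed. That of Rpl8 was 0.014 after quantile normalization, where the median of the 86 genes was 0.15. Rps15a, the standard gene with the lowest mean apart from Rps27, had a log2 fold change of 0.18 ± 0.091 and did not pass. Among the parents of paralogs, Rpl3 had a log2 fold change of 0.27 ± 0.090 (adjusted p = 0.0957 with the block) and Rpl7 of 0.34 ± 0.10 (adjusted p = 0.0747 with the block). Across the 84 genes with a transcript length, the log2 fold change had a Spearman correlation of 0.008 with length and 0.087 with the mean level. Across 11968 genes tested, these correlations were -0.34 and 0.24. They are a description over genes of the same 6 libraries and use the same GENCODE lengths, with the same unlike ranges of length.

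**Figure D4:**
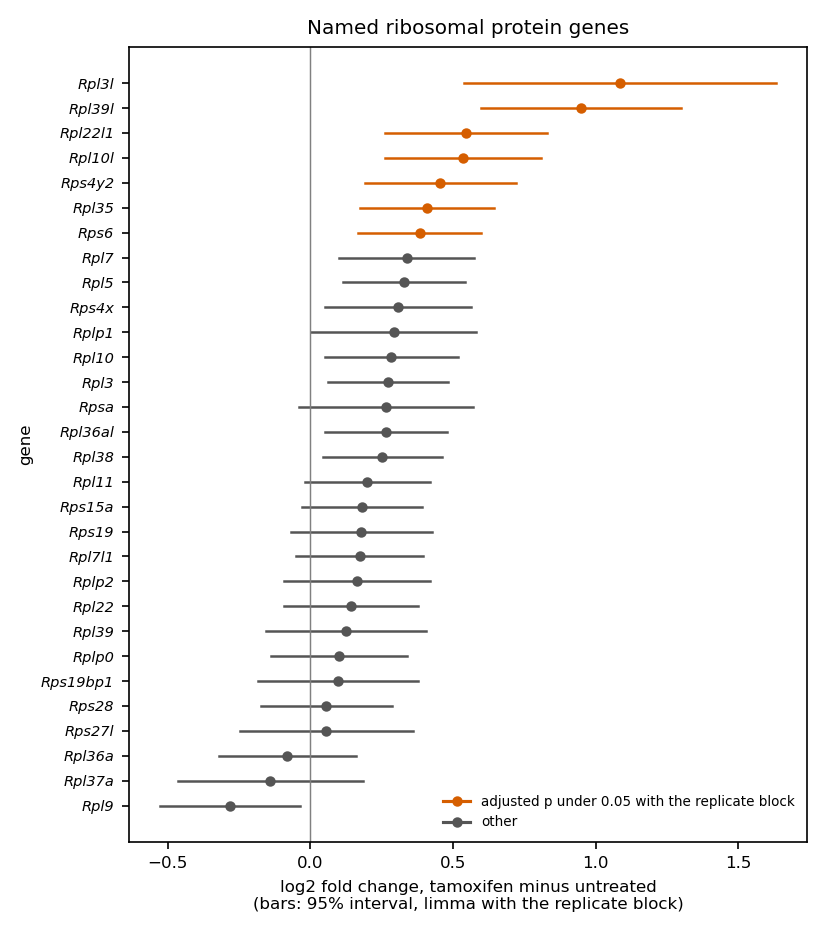
Log2 fold change (tamoxifen minus untreated, horizontal axis) of the named ribosomal protein genes (vertical axis), without those named for a high level alone and without Rps27, which was listed at 0 in 3 libraries. Points are estimates and bars are 95% intervals from limma with the replicate block. The 7 genes with an adjusted p under 0.05, 5 of them paralogs or near names, have intervals above 0. So do several genes that did not pass the adjusted threshold, among them Rpl5, Rpl7 and Rpl3. Rpl9 has an interval below 0 and did not pass either.

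For 2 genes the values depended on how reads were divided between rows at the same place. Rpl26 was listed at 0 in untreated and tamoxifen replicate 1, while it was at 34.9 and 71.3 FPKM in untreated replicates 2 and 3 and at 69.9 and 97.7 FPKM in tamoxifen replicates 2 and 3. The row of Gm15772, whose locus covers the same span, was at 825 and 1246 FPKM in untreated and tamoxifen replicate 1 and at 302 to 397 FPKM in the other libraries. Rps27 was listed at 0 in untreated replicates 1 and 3 and in tamoxifen replicate 1, and was at 7.59 FPKM in untreated replicate 2 and at 8.29 and 8.55 FPKM in tamoxifen replicates 2 and 3. Its locus is shared with Gm9846, at 138 to 257 FPKM untreated and 143 to 326 FPKM with tamoxifen. No fold change is given for either gene. The sum of Rpl26 and Gm15772 was 825, 337 and 389 FPKM in untreated replicates 1, 2 and 3 and 1246, 467 and 464 FPKM in tamoxifen replicates 1, 2 and 3, and that of Rps27 and Gm9846 was 257, 145 and 176 FPKM untreated and 326, 178 and 151 FPKM with tamoxifen. Summed in this way, Rpl26 was higher with tamoxifen within every number, and with the block it joined the 7 genes called. Rpl30 and Rpl34 also share their loci with another row, Gm12191 and Rpl34-ps1, the second of which was listed at 0 in every library.

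Other gene lists placed the shift of the ribosomal protein genes beside those of related and of merely similar genes. The 3 ribosomal proteins with other names had a median log2 fold change of 0.21, and none passed. The mitochondrial ribosomal protein genes, of which 75 of 76 were tested, had a median of 0.215, with 71 above 0. With the block 6 of them were called higher and none lower, against 4.33% and 6.06% of all genes tested. The largest difference among the 6 was that of Mrps15, at 41.4, 28.3 and 39.1 FPKM untreated and at 67.4, 39.0 and 48.3 FPKM with tamoxifen. It was higher within every number (log2 fold change 0.49 ± 0.11, adjusted p = 0.03 with the block). The 18 other TOP mRNAs, among them elongation factor and eIF3 genes, had a median of 0.24, with 16 above 0 and none called. Of 24 ribosome biogenesis genes 23 were tested, with a median of 0.12, 18 above 0 and none called.

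The 15 genes of mTORC1 and MYC control had a median of -0.047, with 9 below 0. With the block 1 was called lower, against 6.06% of all genes tested. The gene called was Myc, at 11.4, 16.1 and 29.6 FPKM in untreated replicates 1, 2 and 3 and at 5.62, 9.04 and 17.3 FPKM in tamoxifen replicates 1, 2 and 3. It fell within every number (log2 fold change -0.87 ± 0.10, adjusted p = 0.00489 with the block), while its groups overlapped, with tamoxifen replicate 3 above untreated replicates 1 and 2. The part of Myc in the ribosomal protein levels was not tested. None of the 10 ESC markers (median 0.165) and none of the 11 fibroblast markers tested (median 0.026) was called in either fit.

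Genes that resembled the ribosomal protein genes in length and level were also above 0. The 54 ribosomal protein genes with a mean of at least 50 FPKM and a transcript under 1000 bp had a median log2 fold change of 0.26, with 52 above 0, and the 232 other genes with the same limits had a median of 0.16, with 189 above 0. The medians of other genes fell with transcript length, from 0.16 for the 807 under 1000 bp through 0.092 for the 2784 of 1000 to 2000 bp to -0.076 for the 8293 of at least 2000 bp. With the block, 4 of the 54 ribosomal protein genes and 17 of the 232 other genes were called higher. So were 101 of the 807 other genes under 1000 bp at any level, and 4.33% of all genes tested. The shares and medians are given side by side without a test of their difference, and the length limits use the GENCODE lengths.

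**Figure D5:**
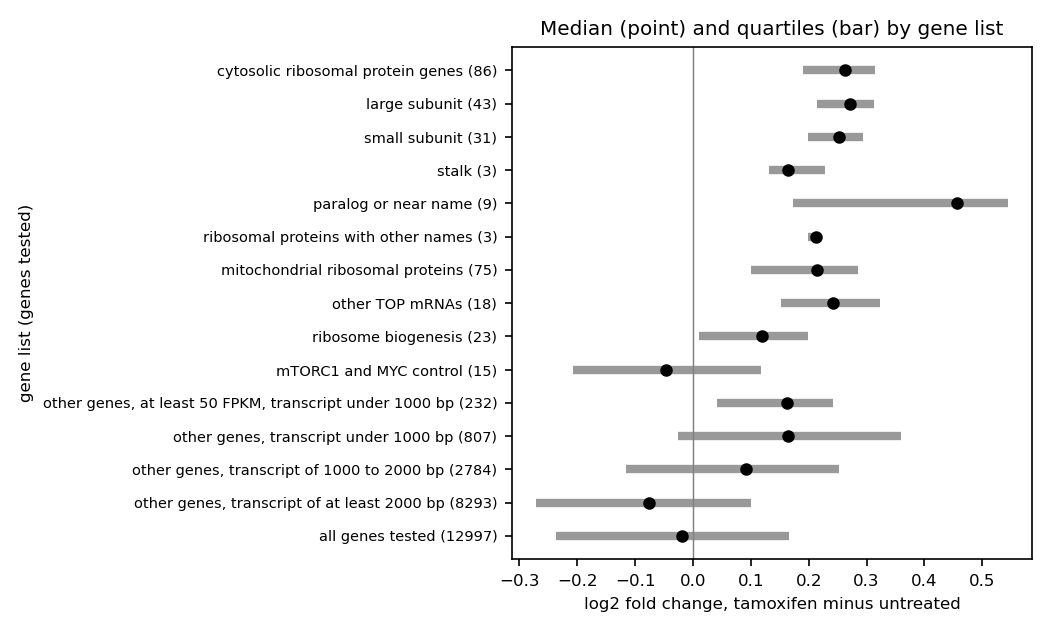
Median log2 fold change (point) and quartiles (bar) on the horizontal axis for the ribosomal protein genes, their subunits, related gene lists, other genes by transcript length and all genes tested, with the number tested in brackets on the vertical axis. The ribosomal protein genes have a median of 0.26 and the paralogs and near names of 0.46, against 0.16 for other short genes of at least 50 FPKM and -0.019 for all genes tested.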

How the data were processed

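PolyA+ RNA of 3 untreated and 3 tamoxifen samples was analysed. The methods describe paired-end 51 bp reads aligned by the authors to mm9 with Tophat2 and quantified with cuffdiff 2.1.1 on refGene models, and the deposited unit is FPKM, 1 value per row and sample, in 23874 rows. The FPKM were summed by gene name. The deposited FPKM confidence bounds were not used: in each library the upper bound lay below the FPKM itself in 68 to 70 of the 86 genes. Gene names with a failed status in any sample (6, none of the 86) were left out. Genes of at least 0.5 FPKM in at least 3 samples were tested (12997) in limma (version 3.58.1 for R 4.3.3; lmFit, eBayes with a trend) after log2 transformation with a pseudocount of 0.1, with Benjamini-Hochberg adjustment over all of them and a threshold of 0.05. The fits were tested on simulated data whose replicate effects were taken from these libraries, which cannot show whether the replicate numbers pair the samples. Read totals cannot be read from FPKM.

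The main fit had no block, and a second had the replicate number as a block. Same-numbered samples deviated together from their group means, with correlations of 0.544, 0.605 and 0.506 over the 12997 genes, so the numbers were taken to pair the samples on this hint from the data, and values with the block are given beside the results. Paralog ratios were compared by exact permutation.

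The ribosomal protein genes and the gene lists were chosen with earlier results of these data known. Named were the 5 highest and 5 lowest genes by mean, the 5 largest and 5 smallest log2 fold changes, genes called in either fit, stalk genes, genes with a known outside role, paralogs with their parents, and up to 3 called genes per other list; a few of these are not reported here. Alternatives were the block, other scalings, pseudocounts of 1 and 0.01, other filters, eBayes without a trend, the highest row per name, and leaving out samples. Added after seeing the data were failed rows kept as 0 and rows of loci that share at least 90% of both spans summed. Transcript lengths came from the GENCODE transcript with the longest coding sequence (84 of the 86 genes matched), and start sites from RefSeq (65 matched). These lengths can differ from those of the refGene models. The ChIP-seq samples were not analysed here. The remaining steps ran in Python 3.11.15 (scipy 1.17.1, pandas 2.3.3, numpy 2.4.6).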

Additional observations from a re-analysis of the deposited data

How the results depend on the processing

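Without the replicate block, no ribosomal protein gene was called under any alternative run, and none of the 86 was called lower in any fit. With the block, 7 genes were called higher, 7 with TPM scaling, 8 without loci under 300 bp and with TPM scaling, 2 with median-ratio scaling (Rpl39l and Rpl3l), 5 with quantile normalization, 8 with rows of overlapping loci summed, 6 without replicate 1, 5 without replicate 3 and 0 without replicate 2, where 36 and 43 of all genes tested were called higher and lower. Of the 7 called with the block, 5 were also called with TPM scaling, 6 without loci under 300 bp, 2 with median-ratio scaling, 4 with quantile normalization, 7 with overlapping rows summed, and 4 each without replicate 1 or 3. The additional calls include Rps27 and Rpl26, listed at 0 in some libraries, and, named after their values were seen, Rps23 (with TPM scaling, without loci under 300 bp and without replicate 3) and Rps14 (without loci under 300 bp). In the blocked fit as reported, Rps23 had a log2 fold change of 0.52 ± 0.139 (SE, adjusted p = 0.0554). Over all genes the block called 563 higher and 787 lower, 430 and 336 with TPM scaling, 421 and 1190 without loci under 300 bp, 393 and 786 with median-ratio scaling, 558 and 586 with quantile normalization, 565 and 792 with overlapping rows summed, 744 and 1011 without replicate 1, and 359 and 478 without replicate 3.

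The median log2 fold change of the 86 genes ran from -0.056 to 0.52 when a library or number was left out. It was below 0 without tamoxifen replicate 1, with 61 of the 86 genes below 0, and it lay between 0.15 and 0.36 under the other scalings. TPM scaling moved the median of all genes by 0.10, from -0.019 to 0.081, and the 86 genes lay 0.28 above it, as in the main fit, and 0.14 above it with quantile normalization. The number of genes with all tamoxifen values above the untreated ones was 0 with TPM scaling, 2 with median-ratio scaling and 3 without loci under 300 bp, against 1.35%, 3.6% and 3.34% of all genes tested. The number lower within every replicate number was 0, 2 and 2, against 12.5%, 33.6% and 37.6%. The causes were not tested. Depth is known only relative to untreated replicate 1, so values near 0, as of Rpl3l, have no counting interval.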
